A study of Mus musculus with 8 samples.

Results

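The 9 genes described here encode enzymes of the tricarboxylic acid (TCA) cycle: Cs, Idh2, Idh3a, Idh3b, Idh3g, Ogdh, Suclg1, Fh1 and Mdh2. They were chosen by name among the 24336 genes named on the array, not by a threshold on measured values, though with earlier results of these data known, and 12 probes of the array carried these names. Ogdh had 3 probes, Fh1 had 2, and the other 7 genes had 1 each. Transcripts were measured in 8 single cells that the labels assign to the myocardium of the mouse heart tube at embryonic day (E) 8.5, at the stage of 9 somites. In the 4 WT cells the genotype was Mesp1+/+ Sox17flox/flox, and in the 4 KO cells it was Mesp1Cre/+ Sox17flox/flox. Both groups thus carried floxed Sox17, and they differed in a Cre recombinase placed in 1 copy of Mesp1, a gene of nascent mesoderm from which the cardiac lineages arise. Cre and the loss of that Mesp1 copy therefore go together with the deletion of Sox17. Cells were picked by hand after trypsin treatment of the heart tube, their cDNA was amplified and typed by PCR of marker genes, and each array held the cDNA of 1 cell. The labels name no embryo for any cell. A genotype is therefore a single sample here, no test compares the genotypes, and an SD gives the spread between cells.

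The TCA cycle oxidises the acetyl group of acetyl-CoA to carbon dioxide in the mitochondrial matrix and passes electrons to the respiratory chain. Citrate synthase starts each turn, isocitrate and 2-oxoglutarate dehydrogenases carry out the oxidative decarboxylations, succinate-CoA ligase makes GTP or ATP, and fumarase and malate dehydrogenase return the carbon to oxaloacetate. The adult heart depends on this oxidation, whereas the early heart tube relies to a large extent on glycolysis, and mitochondria mature as the cardiomyocytes do.

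The probes were oligonucleotides of 60 bases. Ogdh and Fh1 were read by more than 1 probe, so that the signal of a transcript in a cell could be read again at another place in it. A stretch of 30 bases of each of these 5 probes is printed below, 5′ to 3′, because agreement between them bears on whether a low value is that of 1 probe alone. The probes of a gene read the same amplified cDNA of a cell on the same array. Loss of a transcript before hybridisation was therefore not tested by them. Capitals mark the letters AATAAA, the common polyadenylation signal, which was searched in the strand of the probe only. It was held by 1 of the 12 probes and by 10.1% of all 55681 probes of the array. The first 4 stretches are bases 31 to 60 of their probes, and the last is bases 28 to 57.
Ogdh, the first probe: acacctgatttatttattttggttaaaaaa
Ogdh, the second probe: cggcttgacccataaactaagttatcatgg
Ogdh, the third probe: aagatggcttagcactgactgctcttccaa
Fh1, the first probe: aagcagcaaagattgccaagactgcgcaca
Fh1, the second probe: caaagtgacttcAATAAAtttatattaaaa

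Across the arrays, 17.2% to 25.99% of probes were well above background, the flag of the scanner software that is called detection here. Every cell showed all 10 myocardial markers, among them Tnnt2 and Actc1. In WT cell 1, however, Actn2 read no more than 50, and Ttn read 251 against 4381 to 26105.5 in the other cells. The markers also differed between genotypes: 9 were higher and 1 lower in KO cells, with a median KO minus WT difference of 0.53 (log2). For Myl7, at 1.08, all 4 KO cells lay above all 4 WT cells, as for 1.51% of the genes detected in at least 4 cells. A WT cell showed 3 to 5 and a KO cell 2 to 4 of the 13 endothelial markers. Their summed signal, with each gene counted as at least 50, was 1125 to 1293 in WT and 1048 to 1266 in KO cells. Kdr was detected in all 8 cells, at 443 to 693, and Plvap in all 8, at 50 to 99.3. Pecam1 was detected in 4 WT and 2 KO cells, with no signal above 50. Cdh5, Tek and Emcn were among the 7 markers detected in no cell. Erythroid markers numbered 0 of 7 in each WT cell and 0 to 1 in a KO cell, and endoderm markers 0 to 1 of 6 in either genotype. Sox17 was detected in 0 of 8 cells, so the deletion could not be checked in them. The WT arrays shared 1 slide and the KO arrays the other, so that slide and genotype cannot be told apart.

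None of the 9 TCA cycle genes differed 5-fold between the genotype means, and the signals of WT and KO cells overlapped for each of them. Signals were scaled to a common 50th percentile of probes detected on all arrays and set to at least 50, the floor. The KO minus WT difference on the log2 scale ran from -1.91 for Suclg1 to 1.26 for Cs, with a median of -1.08 over the 9 genes. The median was 0.00 over the 5627 genes that passed a filter of detection in 4 or more cells, as all 9 did. The mean was -0.62 over the 9 genes and -0.30 over the 5627. Only 1661 of the 5627 had their lowest signal in a single cell, because values under 50 were set alike. The floor thus bears on their median, and no median or 2-fold share was computed for genes of similar level. Of the 5627 genes, 9.95% were at least 5-fold lower and 2.59% at least 5-fold higher in KO cells. The 0 of 9 is not far from these shares. The shares were 2.73% and 1.43% over the genes detected in all 8 cells, 10.3% and 2.55% over those detected throughout at least 1 genotype, and 3.15% and 0.822% over all named genes. All 4 KO cells lay below all 4 WT cells for 1.95% of the genes and above them for 1.51%, and for 0 of the 9 enzymes in either direction. By at least 2-fold, 5 of the 9 genes were lower in KO and 1 was higher, beside 24.7% and 12.8% of all genes. By any amount 6 of 9 were lower, beside 45.5%. Detection in all 8 cells was reached by 7 of the 9, beside 41.1%, a share that was not computed for genes of similar level either. In each of the 9 genes the SD between cells was larger than the difference in at least 1 genotype, and in 5 genes it was larger in both. Without KO cell 3 the median over the 9 genes was 0.19 in place of -1.08, and 4 genes rather than 6 were lower in KO. Without WT cell 1 the median was -0.92 and all 9 were lower.

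**Figure D1:**
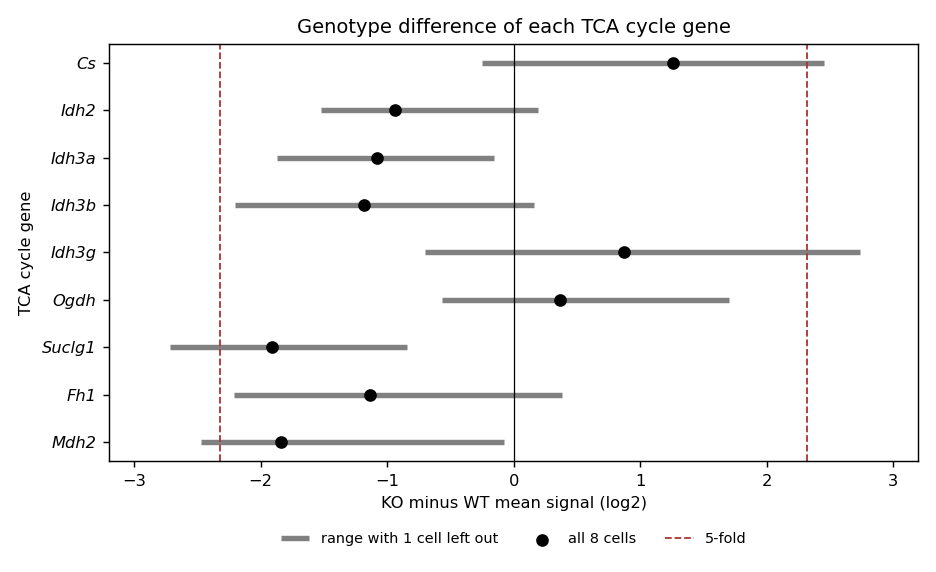
The black points give the KO minus WT difference of mean log2 signal for each of the 9 TCA cycle genes over all 8 cells, the grey bars the range when 1 cell is left out, and the dashed lines a 5-fold difference. All points lie between the dashed lines, from -1.91 for Suclg1 to 1.26 for Cs, and only the bars of Idh3a, Suclg1 and Mdh2 stay on 1 side of 0.

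Cs, citrate synthase, catalyses the condensation that brings acetyl-CoA into the cycle. Its probe lies at chr10:127799428-127799487 (mm9, plus strand). The signal was 50 (the floor), 229, 13927 and 11651 in WT cells 1 to 4, against 14589.6, 372, 1229 and 9215 in KO cells 1 to 4. In both genotypes Cs was thus bright in some cells and dim in others, and 2 WT cells lay below all 4 KO cells. The log2 mean was 10.19 ± 4.08 in WT and 11.45 ± 2.48 in KO (SD between cells, n = 4 each), a difference of 1.26 that was smaller than either SD. It was -0.25 without WT cell 1, 2.45 without WT cell 3 and 2.37 without WT cell 4, the last 2 values being past 5-fold.

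Idh2, the NADP-dependent isocitrate dehydrogenase of the mitochondria, varied least among the WT cells. Its probe lies at chr7:87239736-87239795 (minus strand). The signal was 10110.4, 13648, 6423 and 9749.6 in WT cells 1 to 4, a log2 mean of 13.24 ± 0.45. In the KO cells it was 10547, 16822, 477 and 7538, a log2 mean of 12.30 ± 2.31. KO cell 3 lay under all other cells, and the remaining KO cells lay among or above the WT cells. The difference of -0.94 was larger than the SD of WT and smaller than that of KO cells, and without KO cell 3 it was 0.19.

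The NAD-dependent isocitrate dehydrogenase, the form that runs the cycle, is assembled from an α subunit with the catalytic site, Idh3a, and from β and γ subunits, Idh3b and Idh3g. The probes lie at chr9:54451368-54451427 (plus strand), chr2:130106776-130106835 and chrX:71024358-71024417 (both minus strand). Idh3a read 419, 519, 14802 and 6872 in WT cells 1 to 4, against 4279.5, 1302, 165 and 1215 in KO cells 1 to 4. WT cells 3 and 4 were the brightest and KO cell 3 the dimmest, and the difference of -1.08 was smaller than the SD of 2.60 in WT and of 1.95 in KO cells. It was -0.15 without WT cell 3.

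Idh3b read 3269, 2889, 1518 and 856 in WT cells 1 to 4, against 786, 50 (the floor), 6827 and 1720.2 in KO cells 1 to 4. KO cell 2 was at the floor while KO cell 3 was the brightest of all 8 cells. The difference was -1.18 with all cells and 0.16 without KO cell 2. Idh3g read 50, 2287, 11517 and 2309 in WT cells 1 to 4, against 50, 13911, 8355 and 5892 in KO cells 1 to 4. The probe was detected in 3 of 4 cells of each genotype, with WT cell 1 and KO cell 1 at the floor. Its difference of 0.87 was -0.70 without WT cell 1 and 2.74, past 5-fold, without KO cell 1.

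No cell held the lowest signal of all 3 subunits, and 4 of the 8 cells, WT cell 1 and KO cells 1, 2 and 3, had 1 subunit at least 5-fold under its median over the cells. The subunits did not vary together. Pearson r of the log2 signal over the 8 cells, given as a description, was -0.38 for Idh3a with Idh3b, 0.051 for Idh3a with Idh3g and -0.21 for Idh3b with Idh3g.

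**Figure D2:**
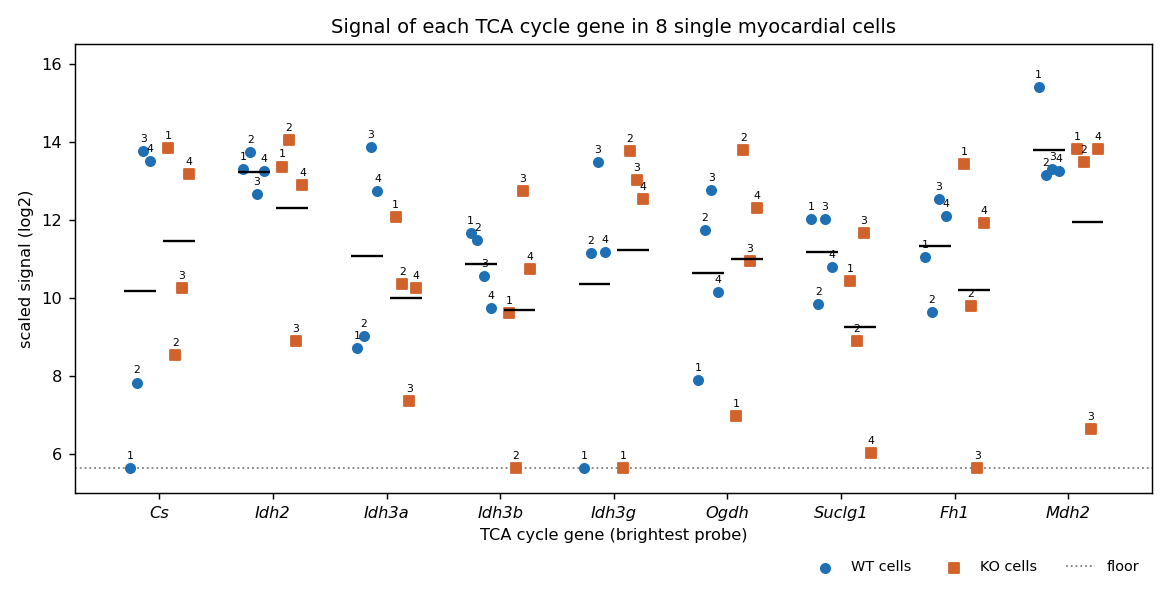
Each point is the scaled log2 signal of the brightest probe of a TCA cycle gene in 1 cell, numbered by cell, with WT cells as circles, KO cells as squares, means as horizontal bars and the floor of 50 as a dotted line. WT and KO points overlap for all 9 genes, and single cells lie at or near the floor, such as KO cell 3 for Fh1 and Mdh2, KO cell 2 for Idh3b and cell 1 of both genotypes for Idh3g.

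Ogdh encodes the first component of the 2-oxoglutarate dehydrogenase complex, which makes succinyl-CoA. The brightest of its probes lies at chr11:6256511-6256570 (plus strand). It read 238, 3404, 6995 and 1148 in WT cells 1 to 4, against 127, 14202, 1972 and 5011 in KO cells 1 to 4. WT cell 1 and KO cell 1 were the dimmest, as they were for Idh3g. The genotype means differed by 0.37, with an SD of 2.12 in WT and 2.92 in KO cells, and the difference was -0.56 without KO cell 2 and 1.70 without KO cell 1.

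The second Ogdh probe, at chr11:6256583-6256642, begins 13 bases past the end of the first. It followed the first with r = 0.981 over the 8 cells, and its difference between genotypes was 0.04. The third probe, at chr11:6258910-6258969, begins 2340 bases past the end of the first and stayed at the floor everywhere except in KO cell 1, where it read 52.2. It was detected in 2 WT and 3 KO cells at these low signals. The probes near each other thus found the same bright and dim cells, while the distal probe was at or near the floor throughout.

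**Figure D3:**
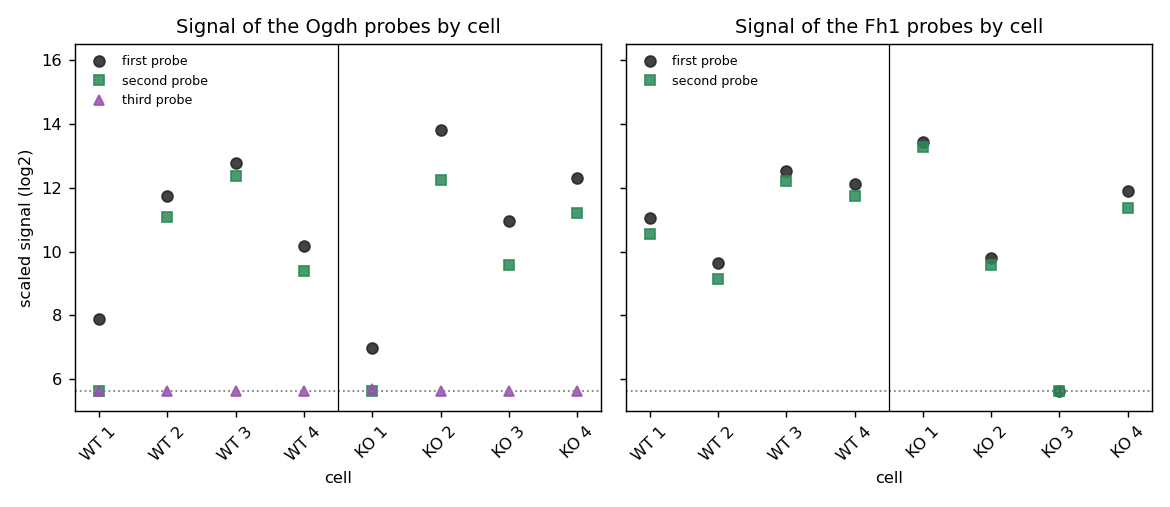
Scaled log2 signal (vertical axis) of each probe of Ogdh and Fh1 in the 8 cells (horizontal axis), with the floor as a dotted line and WT and KO cells separated by the vertical line. The first and second probes move together from cell to cell, with r = 0.981 for Ogdh and 0.997 for Fh1, and the third Ogdh probe stays at the floor in 7 cells.

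Suclg1 encodes the α subunit of succinate-CoA ligase, shared by the GTP-forming and ATP-forming enzymes. Its probe lies at chr6:73221044-73221103 (plus strand). The signal was 4123, 925, 4174 and 1782 in WT cells 1 to 4, against 1375, 478, 3257 and 65.8 in KO cells 1 to 4. KO cells 2 and 4 lay under all WT cells, and KO cells 1 and 3 lay among them. The difference of -1.91, 3.77-fold, was the largest of the 9 genes in size as scaled here, larger than the SD of 1.05 in WT and smaller than that of 2.43 in KO cells. Mdh2 was larger with quantile normalization (-1.79 against -1.60) and normexp background correction (-1.71 against -1.59), and Fh1, at -2.21, with no floor. The difference of Suclg1 stayed negative with any cell left out, from -2.72 without KO cell 3 to -0.84 without KO cell 4, and it was past 5-fold without WT cell 2, at -2.35, and without KO cell 3.

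Fh1, fumarase, hydrates fumarate to malate. Its brightest probe covers chr1:177531659-177534089 (minus strand), a span of 2431 bases for a probe of 60 bases, as a probe across an exon junction would. It read 2105, 799.97, 5914 and 4409 in WT cells 1 to 4, against 11046, 895, 50 (the floor) and 3840.2 in KO cells 1 to 4. KO cell 1 was the brightest of the 8 cells and KO cell 3, in which the probe was not detected, the dimmest. The second probe, at chr1:177531530-177531589, lies 70 bases from the first and was not detected in KO cell 3 either, with r = 0.997 to the first over the 8 cells. The genotypes differed by -1.13 by the first and -0.95 by the second probe, and by 0.38 for the first without KO cell 3.

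Mdh2, the mitochondrial malate dehydrogenase that closes the cycle, had the widest range of the 9 genes with signals held at the floor or above. Its probe lies at chr5:136266157-136266216 (plus strand). The signal was 43139.6, 9057, 10122 and 9798 in WT cells 1 to 4, against 14414, 11449, 99.6 and 14269 in KO cells 1 to 4. Apart from WT cell 1 and KO cell 3, the cells of both genotypes lay within 9057 to 14414. The difference was -1.84 with all cells, larger than the SD of 1.08 in WT and smaller than that of 3.53 in KO cells. It was -0.077 without KO cell 3 and 0.36 when medians of cells replaced the means, and past 5-fold without KO cell 1, 2 or 4, at -2.47, -2.36 and -2.46.

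The low values were spread over several genes and 6 of the 8 cells. Over the 72 values of 9 genes in 8 cells, 13 (18.1%) lay at least 5-fold under the median of their gene over the cells, beside 13.5% over the 645 genes whose mean level lay within the range of the 9. The share over all 5627 genes was 6.58%, but a gene with a median under 5 times the floor cannot lie that low. KO cell 3 held 4 of them, in Idh2, Idh3a, Fh1 and Mdh2. WT cell 1 held 3, in Cs, Idh3g and Ogdh. KO cells 1 and 2 held 2 each, in Idh3g and Ogdh and in Cs and Idh3b. WT cell 2 held 1, in Cs, and KO cell 4 held 1, in Suclg1, while WT cells 3 and 4 held 0. The share of the 645 genes that lay as low was 17.7%, 8.06%, 5.58% and 4.96% in WT cells 1 to 4. In KO cells 1 to 4 it was 16.7%, 21.4%, 19.7% and 13.6%. KO cell 3 was also the array with the fewest probes detected, and the part of this in its low enzymes was not tested. Of its myocardial markers, Tnnt2 read 136887, the highest of the 8 cells, and Myh6 read 13489.6, the lowest.

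Mdh2 in KO cell 3 was 108-fold under the median of the gene, Idh2 20.8-fold and Idh3a 7.63-fold. Idh3b and Idh3g read 6827 and 8355 in the same cell. Between 8 and 9 of the 9 genes were detected in every cell, with a mean of 8.75 ± 0.50 in WT and 8.50 ± 0.58 in KO cells. Detection alone therefore hardly separated the cells, whereas signal did: the mean deviation of the 9 genes from their own means ran from -1.41 in KO cell 3 and -0.95 in WT cell 1 to 1.68 in WT cell 3, all on the log2 scale. The average was 0.31 ± 1.15 in WT and -0.31 ± 0.78 in KO cells, a difference smaller than either SD.

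**Figure D4:**
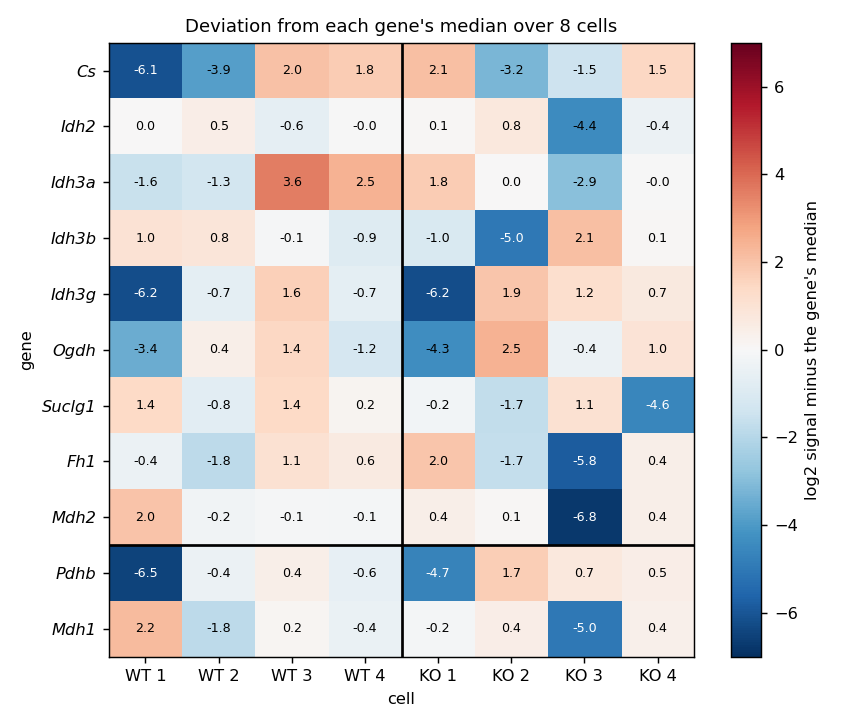
Each tile gives the log2 signal of a gene in a cell minus the median of that gene over the 8 cells, with the 9 TCA cycle genes above the horizontal line and Pdhb and Mdh1 below it, and WT cells left and KO cells right of the vertical line. Among the darker blue tiles are Idh2, Fh1, Mdh2 and Mdh1 in KO cell 3, and Idh3g, Ogdh and Pdhb in WT cell 1 and KO cell 1.

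The median SD between KO cells was larger over these 9 enzymes than over genes of similar signal. How many of those genes spread as widely was not computed. The median SD of the 9 genes was 2.92 in KO and 1.29 in WT cells on the log2 scale. Over the 645 genes of the same range of level, it was 1.91 in KO and 1.31 in WT cells. Without KO cell 3 the KO values were 2.23 for the 9 genes and 1.48 for the 645.

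The 36 pairs of the 9 genes had a median r of -0.085 over the 8 cells, and 15 pairs were above 0. The points of each r share their arrays and their scaling. The highest values were 0.94 for Idh3g with Ogdh and 0.92 for Idh2 with Mdh2. Fh1 had r = 0.82 with Mdh2, 0.80 with Idh3a and 0.71 with Idh2. The lowest value was -0.58, for Idh2 with Idh3b. Thus the genes did not rise and fall as 1 group, and 4 of the 6 pairs with the highest r joined enzymes that were dim in KO cell 3.

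The other genes of the pathway were read by the same rule. Of the other 9 genes of the cycle itself, 8 were detected in at least 4 cells, 1 was at least 5-fold lower in KO, 0 were 5-fold higher, and the median difference was -0.88. The shares over all 5627 genes, to be read beside this list and those below, were 9.95% lower and 2.59% higher. The gene of the cycle past 5-fold was Dlst, the succinyltransferase of the 2-oxoglutarate dehydrogenase complex. Dlst read 50, 1212, 2729.5 and 2751 in WT cells 1 to 4, against 677, 50, 50 and 50 in KO cells 1 to 4, a difference of -3.10. WT cell 1 at the floor lay below KO cell 1, so that the genotypes overlapped. Because WT cell 1 and KO cells 2, 3 and 4 were at the floor, the difference was set in part by the floor. It was -4.27 with no floor, -5.19 with medians of cells and -2.62 with normexp background correction.

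Of 6 genes for the entry of pyruvate, 4 were detected in at least 4 cells, with 0 past 5-fold and a median of -0.18. Pdhb, the β subunit of pyruvate dehydrogenase, differed by 1.32 and Mpc1, a mitochondrial pyruvate carrier, by -0.51. Neither direction held with each cell left out: Pdhb was -0.25 without WT cell 1 and 2.73 without KO cell 1, and Mpc1 was 0.24 without WT cell 2 and 0.10 with no floor. Pdhb read 70.2 in WT cell 1 and 245 in KO cell 1 and 4246.5 to 20687 in the other 6 cells, so that the dim cells were those of Idh3g and Ogdh. Dlat was detected in no cell. Of 7 kinases and phosphatases of pyruvate dehydrogenase, 3 passed the filter, 0 were past 5-fold, and the median was -0.11. Pdk1, which inhibits the enzyme, differed by -1.56, and Pdk3, of the same function, by 0.27. Pdk1 ran from -2.62 to -1.02 with 1 cell left out. Pdk3 turned to -1.01 without KO cell 1, to -0.70 without KO cell 3 and to -1.89 with no floor, and was 1.39 without KO cell 2 or 4.

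Among the anaplerotic and neighbouring enzymes, Got2 was past 5-fold and higher in KO. Got2, the mitochondrial aspartate aminotransferase that links oxaloacetate to aspartate, read 50, 50, 149 and 50.7 in WT cells 1 to 4, against 8308, 6047, 6903 and 220.1 in KO cells 1 to 4. Its probe was detected in all 8 cells and all 4 KO cells lay above all 4 WT cells, with a difference of 5.49, from 4.99 to 6.74 with 1 cell left out. Because 2 WT cells were at the floor, this value was set in part by the floor. Of 7 cytosolic counterparts, 4 passed the filter with 0 past 5-fold and a median of -0.55. Acly, the ATP citrate lyase, and Mdh1, the cytosolic malate dehydrogenase, differed by -1.54 and -1.12, and both were dimmest in KO cell 3, at 50 and 85.9. Without KO cell 3 these 2 differences were -0.053 and 0.19, and with medians of cells that of Mdh1 was 0.25.

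The mean profile of the 9 genes was also set against the 2652 probes of other named genes detected in all 8 cells. The 5 genes with the highest Pearson r over the 8 cells were Gm15796 (0.92), Gm6548 (0.90), Eef1a1 (0.90), Alkbh7 (0.89) and Mpv17 (0.86). Eef1a1, a translation elongation factor, moved little, from 18027 in KO cell 3 to 40564 in WT cell 3. Gm6548 read 11472 and 25803 in these cells, and whether both probes read the same transcript was not tested. The share of the 5627 genes detected was also lowest in KO cell 3, at 69.4%, and highest in WT cell 3, at 91.6%. KO cell 2, at 70.3%, had a mean deviation of -0.17. Mpv17, a protein of the inner mitochondrial membrane, read 50 in WT cell 1 and KO cell 3 and 1957 in WT cell 3. These are the highest of many values over few cells, and they are a description.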

How the data were processed

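The authors amplified the cDNA of single cells by PCR, made RNA from it with T3 polymerase and hybridised it, with Cy3 as the only dye, to Agilent mouse arrays. The deposited values were spot intensity from the scanner software, Feature Extraction 12.0.2.2: its processed signal was used, with mean spot and background intensity as an alternative, and its flags as given. The authors first raised levels under 50 to that value and then scaled every array on its 50th percentile. Here the order was the reverse, and the percentile was taken over detected probes, with all probes as an alternative.

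Outlier spots, 146 to 220 on an array, were dropped, and 0 were saturated. Replicate spots were averaged as log2, arrays were shifted (by -0.76 to 0.68) to a common 50th percentile of the 5301 probes well above background on all 8 arrays, and values under 50 were set to 50. Each gene took the value of its brightest probe on average, and genes detected in at least 4 of 8 cells served as background. The 28 pairs of cells had r between 0.80 and 0.94 over the 5301 probes, so no array was a repeat of another. The number of arrays limits the precision.

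All 9 genes and all their probes are described. Of other pathway genes, those past 5-fold were named, or else the 2 with the largest difference per list, and the 5 genes most like the mean profile. Some results for single pathway genes are not reported here. The members, lists and rules were chosen with earlier results of these data known. Positions are those of the files (mm9), and exon annotation was not used here. Alternatives were other scalings, quantile normalization, normexp (limma 3.58.1, R 4.3.3), no floor, other probes, medians, other filters and left-out cells. Calculations used Python 3.11.15 with pandas 2.3.3 and were tested on simulated data. The simulated cells differed less from each other than the cells here, from starting levels well above the floor. The wide spread and floored values of the 9 genes were thus not covered by that test.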

Additional observations from a re-analysis of the deposited data

Results flagged for a closer look

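The gap between a cell and the next cell of its genotype, as a share of the range of the 4 cells, was examined in 22 groups, namely the 9 genes, their mean and the number detected in both genotypes. Dixon's critical value for 4 values was passed in 4 groups. Chance passes it in about 1 in 20 for independent, normally distributed values. The groups here share cells, and some hold counts or values at the floor. The 4 groups can therefore not be weighed against that rate. For Mdh2 the share was 0.954 in KO cells, with KO cell 3 lowest at 99.6, and 0.929 in WT cells, with WT cell 1 highest at 43139.6. For Idh3g in KO cells it was 0.847, with KO cell 1 at the floor. For the number of genes detected in WT cells it was 1, with WT cell 1 at 8 and the other 3 cells at 9, which is a difference of a single gene.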

How the results depend on the processing

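No paired analysis was possible because numbers alone link cells across genotypes, no embryo is named, and no test compares the genotypes. With 2-fold in place of 5-fold, 5 genes were lower and 1 higher. With 1 cell left out, 0 to 1 genes were at least 5-fold lower and 0 to 1 at least 5-fold higher, and the median of the 9 genes ran from -1.30 to 0.19. The median SD of KO cells was 2.23 without KO cell 3, an alternative chosen after seeing the data. The other settings with all cells gave 0 genes past 5-fold and medians from -1.36 with all probes as the scaling base to -0.16 with medians of cells, and of the 9 genes only Mdh2 changed sign, with medians of cells. The KO minus WT number of genes detected per cell was -0.25, from -0.50 to -0.083 with 1 cell left out and from -0.25 to 0.00 by other definitions of detection. Among all 5627 genes the 560 lower and 146 higher became 1018 and 307 with no floor and 881 and 235 with medians of cells, and 233 were higher without KO cell 3. Over genes detected in all 8 cells they were 63 and 33 of 2311, over genes detected throughout at least 1 genotype 363 and 90 of 3523, and with no filter 767 and 200 of 24324. Normexp moved the median of all genes by 0.16, and that of the 9 genes to -0.97.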

Other observations

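Pairs of a TCA cycle gene and another pathway gene were read after the values had been seen. Over 189 pairs of the 9 genes with the 21 other pathway genes detected in at least 4 cells, the median Pearson r across the 8 cells was 0.061 and the range -0.75 to 0.98. The highest was that of Idh3g with Pdhb, at 0.98, and Ogdh had r = 0.91 with Pdhb. Mdh2 had r = 0.94 with Mdh1. In each of these pairs both genes were dim in the same cells, KO cell 3 for the Mdh1 pair and WT cell 1 and KO cell 1 for the Pdhb pairs. The values describe these 8 cells, which share arrays and scaling, and carry no test.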
